A study of Mus musculus with 9 samples.

Results

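Wt1, Bnc1 and Msln were followed across 3 layers of the newborn mouse bladder as genes known to mark mesothelium, the flat epithelium that covers the outer face of the bladder and other abdominal organs. The genes were taken by symbol, because Wt1 and Bnc1 were known to differ among the stroma arrays and Msln to be higher in urothelium than in detrusor. They are 3 of the 18193 genes that carried a single symbol on the array, and each had 1 probe set of the 45101 in the table. All 3 passed the filter on dim probe sets, which kept 13064 genes whose probe set lay at or above its array's median on at least 3 arrays. Wt1 passed through 4 arrays and Bnc1 through exactly 3, the high ones in each case, so that passing and varying were not independent for these genes.

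The samples were urothelium (the lining epithelium; days 2, 1 and 2 after birth for samples 1, 2 and 3), detrusor (the smooth muscle coat; days 1, 1 and 2) and stroma (days 1, 2 and 2), with 3 arrays a layer. All came from FVB/N mice carrying an SMGA/EGFP transgene, a green fluorescent reporter of smooth muscle gamma actin (Actg2), and there was no group without the transgene. Each layer was cut from frozen sections by laser capture, was not pooled, and its RNA went through 2 rounds of amplification before hybridisation to 1 Affymetrix MOE430 array. The labels give the sex of the animals as unknown and do not tie samples to animals, so the spread behind each p-value is that among these samples and may be technical.

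Wt1 encodes a zinc finger transcription factor of the urogenital ridge that is kept in mesothelium, in the podocytes of the kidney glomerulus and in the Sertoli cells of the testis. Bnc1 encodes basonuclin 1, a zinc finger protein of basal keratinocytes, germ cells and mesothelium. Msln encodes mesothelin, a lipid-anchored surface protein of mesothelial cells that binds the mucin made from Muc16.

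The promoter of Bnc1, the 1 of the 3 genes that matched RefSeq's promoter table, is shown as the sequence from which that gene is transcribed. It covers the 250 bases before the annotated start, chr7:81992300-81992549 on the minus strand of GRCm38.p6, with CG dinucleotides in capitals.
Bnc1: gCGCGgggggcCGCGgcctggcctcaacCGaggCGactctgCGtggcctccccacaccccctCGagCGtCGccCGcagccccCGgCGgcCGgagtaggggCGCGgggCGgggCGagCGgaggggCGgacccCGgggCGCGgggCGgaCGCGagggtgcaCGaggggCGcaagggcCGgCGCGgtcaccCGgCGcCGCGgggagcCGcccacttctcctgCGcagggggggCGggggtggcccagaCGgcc
G and C make up 83.6% of this window and it holds 39 CG dinucleotides, against medians of 52.4% and 6 over the 32851 windows of 250 bases in the table. Fewer CG dinucleotides were present in 98.4% of those windows. The motif GCGNGGGCG, of the kind bound by the zinc fingers of the Wt1 and Egr proteins, was searched on both strands (as CGCCCNCGC on the other). It was not found in the Bnc1 window, and 4.70% of all windows held it.

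Several arrays carried transcripts of a tissue other than their label, and these are given first because the levels of the 3 genes are set beside them below. Urothelial genes (12 of 12 on the array) summed to 228921 to 330903 intensity units in urothelium, 2549 to 3381 in detrusor and 16273 to 199480 in stroma, with the highest stroma sum on stroma 3. Smooth muscle genes (10 of 10) summed to 303178 on urothelium 3, against 29526 and 20896 on urothelium 1 and 2, 346275 to 477452 in detrusor and 51513 to 172063 in stroma. Among markers of the layers, on the log2 scale used throughout, log2(intensity + 39.31), Upk1b stood at 15.97 on stroma 3 and Myh11 at 15.66 on urothelium 3. Dcn, a matrix proteoglycan gene, lay at 11.44 to 12.50 in urothelium, 13.65 to 15.15 in detrusor and 14.45 to 15.80 in stroma. Actg2 itself lay at 9.64 to 16.33, 16.14 to 16.74 and 12.05 to 15.32 in the same order of layers. The Actb control probe sets gave a 3′ over 5′ signal of 5.32 to 8.49 in urothelium and 2.27 to 7.49 in detrusor. On stroma 1, 2 and 3 it was 24.67, 7.96 and 5.0. This ratio rises as RNA is degraded, and the parts of degradation and of the 2 rounds of amplification in it cannot be told apart.

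Stroma 2 carried testis genes. On this array, 10 of 10 genes of Sertoli cells and gonadal support cells were at their highest, and so were 6 of 6 germ cell genes. Of these, 6 of the 10 and 2 of the 6 passed the filter. The share of all genes at their highest on a given array was not counted. The Sertoli list summed to 136581 intensity units on stroma 2, against 1604 to 3757 in urothelium and 2667 to 3996 in detrusor, and to 3442 and 3112 on stroma 1 and 3. The germ cell list summed to 14995 on stroma 2, against 453 to 842 in urothelium, 459 to 582 in detrusor, and 438 and 797 on stroma 1 and 3. Inhbb, an inhibin and activin subunit gene, had a log2 level of 15.42 on stroma 2 and at most 10.40 elsewhere, and Dmrt1, a testis differentiation factor, 13.57 and at most 7.62. Amh, the Müllerian duct inhibitor of fetal Sertoli cells, stayed dim at 6.55. Of 4 Leydig cell genes, 3 were highest on stroma 2. Of the 13064 genes past the filter, stroma 2 had 78 at least 2 log2 units above all other arrays, whereas the other arrays had 0 to 8. Genes high on 1 array alone could fail the filter, as Dmrt1 did, and were then not counted.

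Kidney genes were high on 4 arrays, all of day 2. The 15 genes summed to 99898, 2015 and 19730 intensity units on urothelium 1, 2 and 3, to 8415, 5122 and 3041 on detrusor 1, 2 and 3, and to 12024, 16107 and 135177 on stroma 1, 2 and 3. Podxl, 1 of the 15, weighed heavily in some of the lower sums. Its log2 levels were 12.64 on detrusor 1, 13.11 on stroma 1 and 12.22 on stroma 2. The list's median log2 levels on these arrays were 7.02, 7.49 and 9.21. Umod, which encodes the uromodulin of the thick ascending limb, had log2 levels of 13.47, 6.16 and 10.18 in urothelium, 6.79, 6.83 and 5.65 in detrusor and 8.37, 12.20 and 15.53 in stroma. Cdh16, a kidney cadherin gene, had levels of 13.65, 6.95 and 12.32 in urothelium, 7.49, 7.15 and 5.87 in detrusor and 7.41, 9.30 and 13.15 in stroma. For 8 of the 15 genes the 4 highest arrays were urothelium 1, urothelium 3, stroma 2 and stroma 3. These 4 arrays were named after levels had been seen. The share of all genes with the same 4 highest arrays was not counted, so whether 8 of 15 is unusual cannot be said. The testis and kidney lists were chosen after levels had been seen. No list gene was at 0, and a value near the bottom of the scale cannot be called absent because the table has no detection calls.

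**Figure D1:**
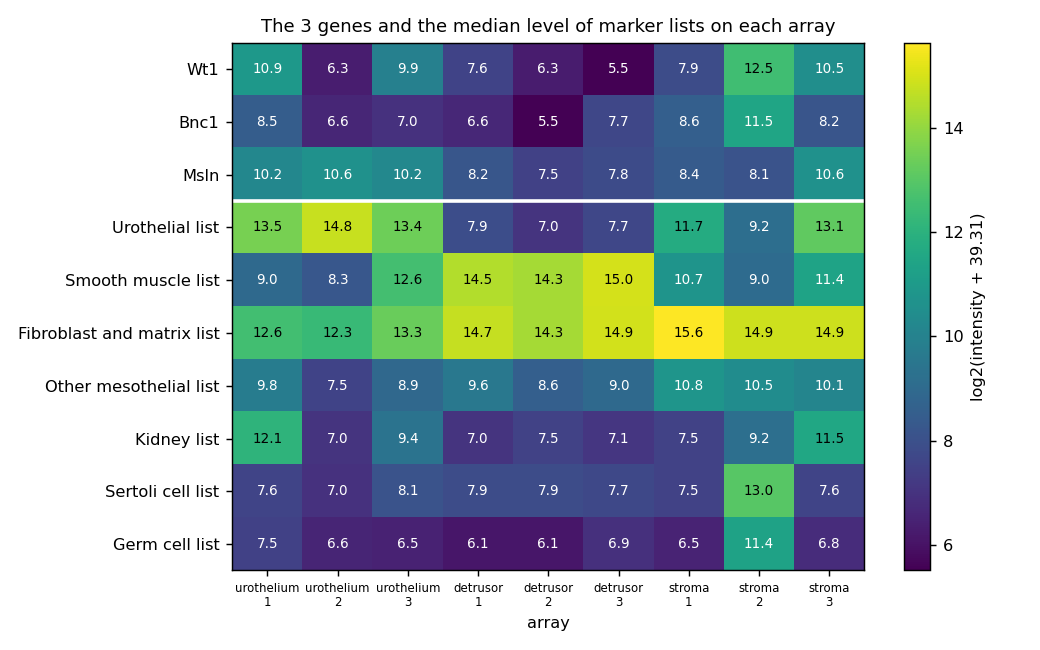
Log2 level of Wt1, Bnc1 and Msln (top) and median log2 level of 7 marker lists (bottom) on each of 9 arrays, by colour and number. Wt1 is highest on urothelium 1, urothelium 3, stroma 2 and stroma 3, the arrays with the highest kidney list medians, and the Sertoli and germ cell lists stand out on stroma 2 alone.

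Wt1 was high on 4 of the 9 arrays, in both urothelium and stroma, and low on all 3 detrusor arrays. Its intensities were 1868.1, 40.67 and 926.25 on urothelium 1, 2 and 3, against 149.9, 38.9 and 6.66 on detrusor 1, 2 and 3 and 194.76, 5880.8 and 1421.67 on stroma 1, 2 and 3. The high arrays placed Wt1 at the 79.4th, 71.7th, 91.0th and 75.0th percentile of their own probe sets (urothelium 1, urothelium 3, stroma 2 and stroma 3), and the other 5 arrays placed it below their median. On the log2 scale Wt1 averaged 9.04 ± 2.41 in urothelium, 6.46 ± 1.03 in detrusor and 10.30 ± 2.34 in stroma (SD, n = 3 each). Urothelium and detrusor overlapped, because urothelium 2 lay below detrusor 1, and urothelium and stroma overlapped too. All detrusor values lay below all stroma values, which holds for 15.3% of all genes.

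The 4 Wt1-high arrays are those with the highest kidney sums, and the highest Wt1 value fell on the array with testis genes. Podocytes and Sertoli cells are known sources of Wt1, and their part in the Wt1 values was not tested. From a list of podocyte and gonad genes, 5 of the 9 genes on the array were highest on stroma 2 (Amhr2, Nr5a1, Gata4, Dhh and Amh) and the other 4 on stroma 3 (Nphs1, Podxl, Synpo and Foxl2). Those 5 are also in the Sertoli list, and Nphs1 and Podxl are also in the kidney list. These counts thus repeat genes given above and add no separate evidence. The podocyte and gonad list summed to 3327 to 24370 intensity units in urothelium, 5243 to 10951 in detrusor and 12437 to 52015 in stroma. Nphs1, the slit diaphragm gene that defines podocytes, was dim and failed the filter, with log2 levels of 7.84, 7.32 and 8.03 in urothelium, 6.31, 5.67 and 7.12 in detrusor and 7.20, 7.28 and 9.34 in stroma. In bulk tissue, fewer cells of a type and less RNA per cell cannot be told apart.

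The difference of Wt1 between urothelium and detrusor did not pass the test. It was 2.59 ± 1.29 on the log2 scale (SE, n = 3 each; limma adjusted p = 0.210, Benjamini-Hochberg over 13064 genes), in a comparison where 16.4% of all genes were called at an adjusted p under 0.05. With limma's array weights, which downweight arrays that fit poorly, the difference was 3.51 ± 0.95 and passed (adjusted p = 0.0173). Without the 4 arrays that carried kidney or testis genes it was -0.14 ± 0.89 (adjusted p = 0.939), a setting chosen after the levels were seen that leaves 1 urothelium array, 3 detrusor arrays and 1 stroma array and assumes that a lone array varies like the others. Over all 19 alternatives adjusted p ranged from 0.0173 to 0.939. Wt1 passed the filter through 2 urothelium and 2 stroma arrays and 0 detrusor arrays. The filter and urothelium minus detrusor were thus not independent, and no conclusion is drawn from the pass with array weights. The differences that involve stroma led to the choice of the gene and carry no test. Urothelium minus stroma was -1.26 ± 1.29 and detrusor minus stroma -3.85 ± 1.29. Without the 4 arrays, detrusor minus stroma was -1.41, and without urothelium 2, urothelium minus stroma was 0.10.

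**Figure D2:**
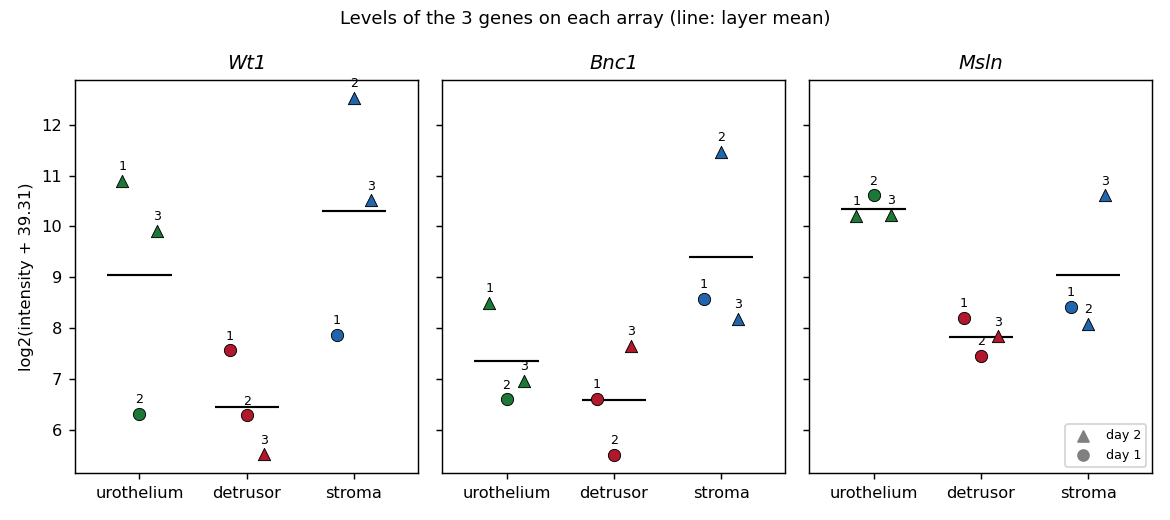
Log2 level, log2(intensity + 39.31), of Wt1, Bnc1 and Msln on each array by layer; triangles are day 2, circles day 1, digits the sample number and lines the mean of 3 arrays. Wt1 spreads widely in urothelium and stroma, Bnc1 stands highest on stroma 2, and the Msln values of urothelium and of stroma 3 lie together near 10.2 to 10.6.

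By day, Wt1 was higher on day 2 in urothelium and stroma and lower in detrusor. The 5 day 2 arrays had intensities with a median of 1421.67 (lowest 6.66, highest 5880.8), and the 4 day 1 arrays a median of 95.3 (38.9 to 194.76). Day 2 minus day 1 was 4.08 within urothelium, -1.40 within detrusor and 3.65 within stroma. All 3 detrusor values lay below their array medians, so the sign in detrusor rests on dim values and 1 day 2 array. Adjusted for layer, day 2 minus day 1 was 2.11 ± 0.95 (SE, 5 and 4 arrays), and 1.12 to 3.87 with 1 array left out. It carries no test, because its stroma part sets stroma 2 and 3 against stroma 1, the differences for which the gene was chosen, and because the 4 arrays through which Wt1 passed the filter are of day 2. The day difference in urothelium minus that in detrusor, which uses no stroma value, was 5.49 ± 1.47 and did not pass (limma interaction term, adjusted p = 0.784), with 1 array on one of the days in each of these layers. This interaction term was added after the levels were seen, and Wt1 passed the filter partly through the day 2 urothelium arrays. It is thus not an independent test. The 4 Wt1-high arrays are 4 of the 5 day 2 arrays, so that day, kidney or testis transcripts and Wt1 level went together in urothelium and stroma. Within day 2, urothelium minus detrusor was 4.88 (2 urothelium arrays and 1 detrusor array), and within day 1 it was -0.60 (1 and 2). Urothelium minus stroma was -1.12 within day 2 and -1.55 within day 1, and detrusor minus stroma -6.00 within day 2 and -0.94 within day 1.

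The antisense gene next to Wt1, Wt1os, had log2 levels of 5.82, 5.34 and 5.66 in urothelium, 5.39, 5.55 and 5.36 in detrusor and 5.48, 7.91 and 7.68 in stroma. It was above the bottom of the scale on stroma 2 and 3, both Wt1-high, and near the bottom on urothelium 1 and 3, also Wt1-high. The probe sequences were not aligned here, so which strand each probe set reads was not checked and both signals are uncertain for this locus.

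Bnc1 stood out on stroma 2. Its intensities were 321.5, 57.83 and 86.09 on urothelium 1, 2 and 3, against 58.99, 6.27 and 162.99 on detrusor 1, 2 and 3 and 342.0, 2773.26 and 250.9 on stroma 1, 2 and 3. On stroma 2 it lay at the 84.1st percentile of probe sets, and on the other 8 arrays between percentiles 2.81 and 56.4. Stroma 2 was 2.88 log2 units above stroma 1 (7.38-fold on this scale) and 3.28 above stroma 3 (9.69-fold). The same array carried the germ cell genes, and germ cells are a known source of Bnc1; their part in the value was not tested. Ddx4, which encodes an RNA helicase that defines germ cells, had a log2 level of 11.09 on stroma 2, and lay at 5.34 to 6.16 in urothelium, 5.40 to 7.85 in detrusor, and 5.58 and 6.53 on stroma 1 and 3.

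Bnc1 averaged 7.36 ± 1.00 in urothelium, 6.60 ± 1.08 in detrusor and 9.40 ± 1.79 in stroma on the log2 scale (SD, n = 3 each). Urothelium and detrusor overlapped, and their difference of 0.76 ± 0.92 did not pass (SE; limma adjusted p = 0.647; 0.366 to 0.997 over 19 alternatives). Bnc1 passed the filter through 1 urothelium and 2 stroma arrays and 0 detrusor arrays, so the filter and this difference were not independent. Every detrusor value lay below every stroma value, as for 15.3% of all genes, whereas urothelium 1 lay within the stroma range. Urothelium minus stroma was -2.05 ± 0.92 and detrusor minus stroma -2.81 ± 0.92, given with no test because the stroma values led to the choice of the gene. Leaving out stroma 2 brought these to -1.02 and -1.78. Within day 2, urothelium minus detrusor was 0.07, urothelium minus stroma -2.09 and detrusor minus stroma -2.16, and within day 1 they were 0.54, -1.97 and -2.51. Day 2 minus day 1 was 1.13 within urothelium, 1.60 within detrusor and 1.24 within stroma, and 1.32 ± 0.72 adjusted for layer, with no test for the same reason.

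Msln was the steady member in urothelium and detrusor, and stroma held both levels. Its intensities were 1137.33, 1524.02 and 1164.01 on urothelium 1, 2 and 3, against 255.03, 136.79 and 189.75 on detrusor 1, 2 and 3 and 303.47, 233.62 and 1525.22 on stroma 1, 2 and 3. Every urothelium value lay above every detrusor value, as for 19.3% of all genes, stroma 3 matched the highest urothelium array, and stroma 1 and 2 lay near the detrusor range. Msln averaged 10.35 ± 0.23 in urothelium, 7.83 ± 0.37 in detrusor and 9.04 ± 1.37 in stroma on the log2 scale (SD, n = 3 each). Urothelium minus detrusor, for which the gene was chosen, was 2.51 ± 0.61 (5.71-fold) and carries no test. It was 2.38 within day 2 and 2.78 within day 1.

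Against stroma, Msln did not pass in either direction. Urothelium minus stroma was 1.31 ± 0.61 (SE; limma adjusted p = 0.280), where 0.23% of all genes were called, and detrusor minus stroma was -1.21 ± 0.61 (adjusted p = 0.268), where 5.84% were called. Urothelium minus stroma was 0.86 within day 2 and 2.19 within day 1, and detrusor minus stroma -1.51 within day 2 and -0.59 within day 1. Both comparisons reuse urothelium or detrusor values for which Msln was chosen. They are not independent of that choice, and no conclusion is drawn from a pass in either. Without stroma 3, the stroma array with the highest urothelial sum, urothelium minus stroma was 2.09 ± 0.45 and passed (adjusted p = 0.0347; range over 19 alternatives 0.0347 to 0.565), and detrusor minus stroma was -0.42 (adjusted p = 0.630; range 0.136 to 0.630). On stroma 3 Msln was 2.19 log2 units above stroma 1 and 2.52 above stroma 2 (5.73-fold), and the part of urothelial transcripts in that value was not tested. Urothelium 2, with the lowest kidney sum, had the highest Msln of the urothelium arrays, and stroma 2, with the testis genes, had the lowest of the stroma arrays, whereas stroma 3 had both the highest kidney sum and the highest Msln in stroma. By day, Msln differed by -0.39 within urothelium, 0.01 within detrusor and 0.93 within stroma (day 2 minus day 1), and by 0.18 ± 0.55 adjusted for layer (limma adjusted p = 0.976), in a comparison where 0.0153% of all genes were called.

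The spread within a layer is given as a description, and for Wt1 and Bnc1 in stroma it restates the choice of genes that differ among the stroma arrays. The SD of Wt1 among the 3 arrays exceeded that of 98.9% of all genes in urothelium, 93.4% in detrusor and 98.3% in stroma. For Bnc1 the shares were 88.4%, 94.1% and 95.2%, and for Msln 22.3%, 47.7% and 89.8%. The median SD of a gene was 0.42, 0.39 and 0.56 log2 units in urothelium, detrusor and stroma. Over the 9 arrays Pearson's r was 0.74 between Wt1 and Bnc1, 0.34 between Wt1 and Msln and -0.04 between Bnc1 and Msln, as a description over arrays that share layers and days. Without stroma 2 the same values were 0.54, 0.66 and 0.34, so that 1 array set much of how alike they looked. The choice also set Wt1 and Bnc1 apart from Msln, so nothing is read from these values about whether the genes vary together, and calling them mesothelial rests on what they are known for.

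The genes whose levels ran closest to each member over the 9 arrays also differed. For Wt1 they were Abcg1 (Pearson's r 0.96), Tbc1d14 (0.96), Nasp (0.96), Brd8 (0.96), Luc7l (0.95) and Spidr (0.95). For Bnc1 they were Haus5 (0.98), Snrpa1 (0.97), Slc27a3 (0.96), Med9 (0.96), Eif5a2 (0.95) and Pdzd2 (0.95). For Msln they were Rassf7, Hip1r, Rgs9bp, Il17re, Fam83f and Ezr, all at 0.98. Ezr, which encodes ezrin, the linker of membrane to actin in microvilli, had also been listed among genes shared by mesothelium and urothelium. With 13064 genes and 9 arrays such high values are the ends of a long ranking, and without stroma 2 they were 0.93 to 0.95 for the Wt1 genes, 0.85 to 0.96 for the Bnc1 genes and 0.98 to 0.99 for the Msln genes.

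Other genes known from mesothelium were called in both directions between layers, and several were too dim to test. Of a list of 15, 14 were on the array and 9 passed the filter. Lrrn4, Rspo1, Calb2, Muc16 and Prg4, of which Calb2 (calretinin), Muc16 and Lrrn4 are used as mesothelial markers, were too dim to pass. Lrrn4 had log2 levels of 8.97, 5.82 and 7.55 in urothelium, 8.92, 5.97 and 7.15 in detrusor and 5.80, 7.77 and 7.58 in stroma. Muc16, whose product is the partner of mesothelin, lay between 7.11 and 8.12 in urothelium, 6.17 and 7.91 in detrusor and 6.89 and 8.07 in stroma. Calb2 lay between 6.09 and 6.31, between 6.23 and 7.35 and between 6.41 and 7.30, Rspo1 between 6.01 and 7.15, 5.50 and 7.26 and 5.48 and 6.76, and Prg4 between 5.71 and 7.06, 6.72 and 9.59 and 6.32 and 8.79, for urothelium, detrusor and stroma.

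Between urothelium and detrusor, 2 of the 9 tested genes were higher in urothelium and 3 lower, against 8.37% and 8.05% of all genes. The list's median difference was -0.62, and that of all genes -0.01. Efemp1, a fibulin of the matrix (log2 2.68 ± 0.34, SE, limma adjusted p = 0.00110), and Aldh1a2, which makes retinoic acid (2.29 ± 0.42, adjusted p = 0.00444), were higher. Tbx18, a T-box factor of the mesenchyme around the ureter (-4.29 ± 0.85, adjusted p = 0.00690), Rarres2, which encodes chemerin (-2.71 ± 0.61, adjusted p = 0.0118), and Sulf1, a heparan sulfatase gene (-1.40 ± 0.43, adjusted p = 0.04998, just under the threshold), were lower. Without detrusor 1, and without detrusor 3, 3 of the 9 were called.

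In the same list detrusor was below stroma for 2 genes, and 0 were called between urothelium and stroma. Detrusor minus stroma was -3.94 ± 0.34 for Efemp1 (limma adjusted p = 0.000516) and -2.73 ± 0.42 for Aldh1a2 (adjusted p = 0.00785), with 0 genes higher in detrusor, against 2.72% lower and 3.12% higher of all genes. The median was -0.54 for the list and -0.16 for all genes. Against stroma 0 of 9 were called in urothelium by limma (list median -1.26, all genes -0.12), where 0.0612% of all genes were called higher, 0.168% lower, and 19% had an unadjusted p under 0.05. That count was 1 without stroma 3. Calls over all genes moved too, from 30 with all arrays to between 0 and 528 with 1 array left out. Gpm6a, a membrane glycoprotein gene, was uncalled and within urothelium was highest on sample 1 and lowest on sample 2, as Wt1 was, with log2 levels of 11.63, 5.85 and 9.29 there, 9.12, 5.51 and 8.25 in detrusor and 6.25, 9.74 and 8.51 in stroma. Pdpn (podoplanin), Nkain4 and Cldn15 were not called in any layer comparison, with urothelium minus detrusor of 0.65 ± 0.49, -0.77 ± 0.57 and -0.62 ± 0.52.

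**Figure D3:**
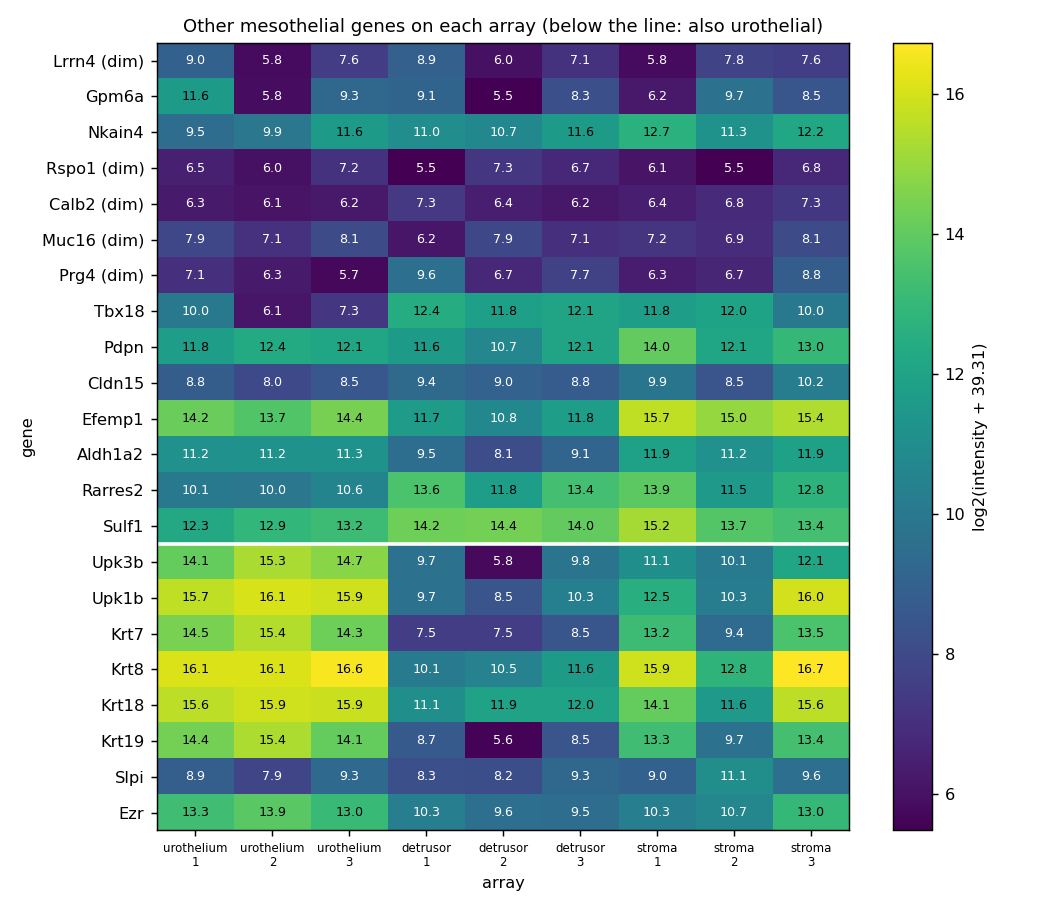
Log2 level of 14 other genes known from mesothelium (above the line) and 8 shared by mesothelium and urothelium (below it) on each of 9 arrays; "dim" marks a gene that failed the filter. Gpm6a and Lrrn4 differ between arrays of 1 layer, whereas the keratin and uroplakin genes are high in urothelium and on stroma 3 and low in detrusor.

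Most genes that mesothelium shares with urothelium were high in urothelium and low in detrusor, as Msln was. The list was made of genes known from urothelium, with earlier results of these data known. Its direction between these layers was thus largely set by the choice. Of 8 such genes, 7 were higher in urothelium than in detrusor and 0 lower, against 8.37% and 8.05% of all genes, with a median of 5.91 (all genes -0.01). These were the keratin genes Krt7 (log2 6.88 ± 0.89, SE, limma adjusted p = 0.00120), Krt8 (5.57 ± 0.81), Krt18 (4.14 ± 0.77) and Krt19 (7.02 ± 1.02), the uroplakin genes Upk1b (6.40 ± 1.09) and Upk3b (6.26 ± 0.95), and Ezr (3.61 ± 0.61). Slpi, a protease inhibitor gene, was not called (0.12 ± 0.61, adjusted p = 0.928) and was highest on stroma 2, at 11.05. Against stroma 0 of 8 were called in urothelium, with a median of 2.28 (all genes -0.12), and 3 were without stroma 3. Over all genes, that comparison had 30 calls with all arrays and 0 to 528 with 1 array left out. Krt7 (-4.21 ± 0.89, adjusted p = 0.0237), Krt8 (-4.41 ± 0.81, adjusted p = 0.0152) and Krt19 (-4.54 ± 1.02, adjusted p = 0.0290) had lower levels in detrusor than in stroma, against 2.72% of all genes, with a median of -3.04 for the list and -0.16 for all genes. That count of 3 was 0 without detrusor 2, 1 without detrusor 3, without stroma 1 or without stroma 3, and 5 without stroma 2. Over all genes, detrusor minus stroma had 763 calls with all arrays and 105 to 851 with 1 array left out. Stroma 1 and 3 had the higher urothelial sums in stroma, and the part of urothelial transcripts in these calls was not tested.

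**Figure D4:**
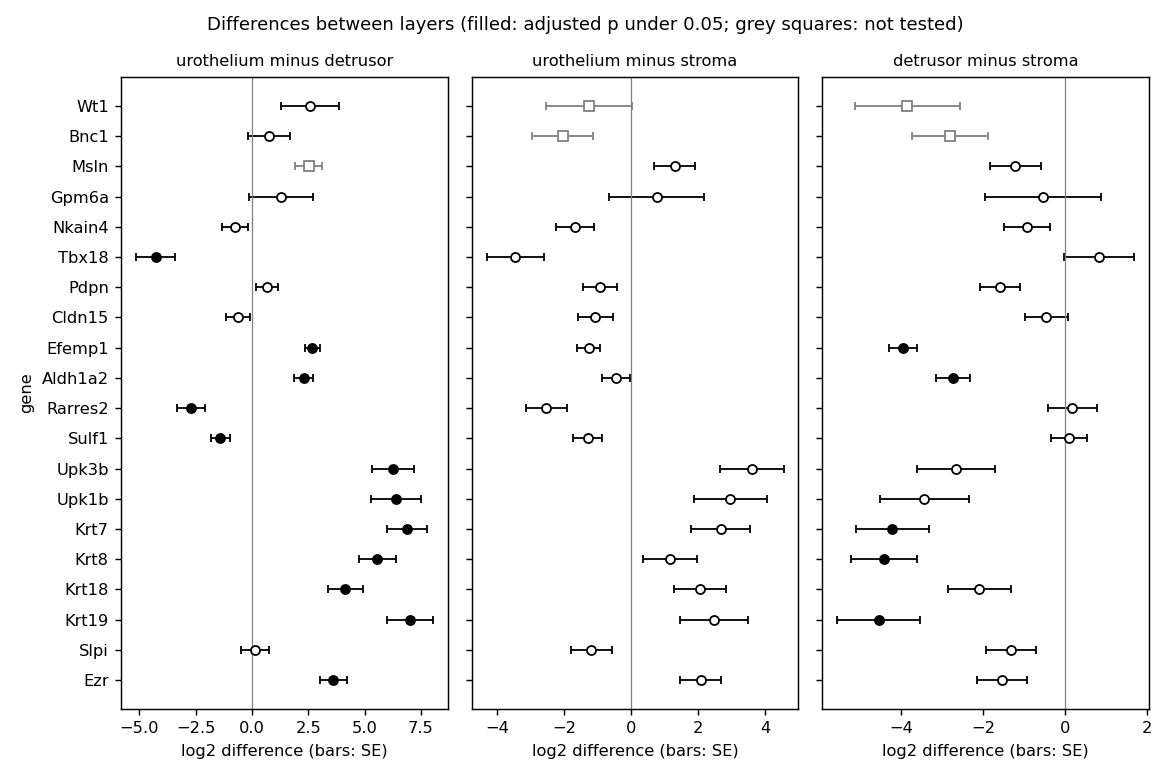
Log2 difference (± SE, 3 arrays a layer) between layers for Wt1, Bnc1, Msln and 17 other genes known from mesothelium that passed the filter; filled points have an adjusted p under 0.05 and grey squares were not tested because the gene was chosen on those arrays. Differences of Wt1 and Bnc1 have wide errors, and the keratin, uroplakin and Ezr genes have the largest positive differences of urothelium minus detrusor among these genes.

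Among genes tied to Wt1 by function, Pawr, Cdh1, Wnt4 and Itga4 were called between layers. Of 5 genes for Wt1-binding or Wt1-named partners, Pawr, a proapoptotic repressor that binds Wt1, was lower in urothelium than in detrusor (log2 -1.54 ± 0.40, SE, limma adjusted p = 0.0240) and higher in detrusor than in stroma (1.83 ± 0.40, adjusted p = 0.0267), against 8.05% and 3.12% of all genes. Basp1, Wtap, Wtip and Cited2 were not called in any comparison, and Cited2 was highest on stroma 2, at 15.04. The first Pawr call was lost without detrusor 2, detrusor 3, urothelium 1 or urothelium 2, and the second without each detrusor array in turn and without stroma 2. Of 21 reported Wt1 targets, 19 were on the array and 14 passed the filter. Cdh1, which encodes E-cadherin (7.07 ± 0.81, adjusted p = 0.000704), and Wnt4 (5.68 ± 0.91, adjusted p = 0.00260) were higher in urothelium than in detrusor, and 0 were lower, against 8.37% and 8.05% of all genes. The 2 of 14 called in either direction are near the 16.4% of all genes, and the median was -0.43 for the list and -0.01 for all genes. Cdh1 (-4.37 ± 0.81), Wnt4 (-4.62 ± 0.91) and the integrin gene Itga4 (-2.65 ± 0.50) were the 3 of 14 called lower in detrusor than in stroma, against 2.72% of all genes, with a median of -0.61 for the list and -0.16 for all genes. In that comparison 0 of the 14 were called without detrusor 2 or without detrusor 3. None of the 14 was called by limma between urothelium and stroma, and 2 were without stroma 3. Calls over all genes there ranged from 0 to 528 with 1 array left out, against 30 with all arrays. Cdh1 and Wnt4 were highest on urothelium 2, at 15.07 and 12.96, where Wt1 was near the bottom of the scale. Itga4 was highest on stroma 2, at 12.01, as Wt1 was, and stood at 11.86 on stroma 1, where Wt1 was low.

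Among the paralog and partner genes, Bnc2, which encodes basonuclin 2 of mesenchymal cells, was lower in urothelium than in detrusor (log2 -2.68 ± 0.59, SE, limma adjusted p = 0.0112), 1 of 3 tested genes against 8.05% of all genes. Its log2 levels were 10.47, 8.83 and 9.03 in urothelium, 12.03, 12.07 and 12.27 in detrusor and 9.95, 12.03 and 10.04 in stroma. Detrusor arrays thus held high Bnc2 and low Bnc1, and stroma 2 was the stroma array highest in both. Detrusor minus stroma for Bnc2 was 1.45 ± 0.59 (adjusted p = 0.177), and 1 gene of the list was called in that comparison without stroma 2. Egr2 and Egr3, whose zinc fingers resemble those of Wt1, were not called, with urothelium minus detrusor of -0.58 ± 0.82 and -0.65 ± 0.71, and both were highest on stroma 2, at 12.01 and 8.68. Mslnl, the neighbour and paralog of Msln, had no probe set among the named ones. By day, 0 genes of the 5 lists were called by limma, where 5.56% of all genes had an unadjusted p under 0.05.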

How the data were processed

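The authors' deposited table holds linear probe set intensities of 9 arrays made with GCOS, per the submitters' processing notes. The sources used here name neither its algorithm nor its version. The trimmed mean was 1500 on every array, so the deposited scaling was kept. Array medians ranged from 133.28 to 388.47 intensity units. The number of arrays limits the precision, and the median SE of urothelium minus detrusor was 0.449 log2 units.

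Tests used log2(intensity + 39.31), whose pseudocount is the 20th percentile over the whole table; fold changes of dim genes are understated on it. Of 45101 probe sets, 64 were controls, 34945 had 1 symbol, 932 several and 9211 none in the platform annotation. A GRCm38.p6 gene table held the identifiers of 34754 and changed 0 symbols. Probe sets at or above the array median on at least 3 arrays passed, 22207 of them with 1 symbol, and a gene was read from its probe set of highest mean. R 4.3.3 and limma 3.58.1 (eBayes after lmFit, trend on) fitted layer over all arrays, and day beside layer for the day comparison. Calls are Benjamini-Hochberg adjusted p under 0.05 over 13064 genes. The test was tried on simulated data first.

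Samples were grouped by the tissue source in the labels. The 3 genes and all lists were chosen with earlier results of these data known, and the testis and kidney lists after levels had been seen. Differences on which a gene was chosen carry no test, and neither do the day differences of Wt1 and Bnc1, which contain those among stroma arrays. The genes named were the 3 members, the other mesothelial genes and paralogs, called members of the other fixed lists, the 6 genes most correlated with each member, and Myh11, Upk1b, Dcn and Actg2; list markers beyond these were picked after their values were seen. Alternatives were quantile normalization, median centring, pseudocounts of 8.13 and 232.88 (the 5th percentile and the median), no filter, each probe set on its own, array weights, no trend, day as a term, each array left out, and 4 arrays left out together. The layer by day interaction was also added after seeing the data.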

Additional observations from a re-analysis of the deposited data

Results flagged for a closer look

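Wt1 is listed because its difference between days ran in opposite directions in different layers. Day 2 minus day 1 was 4.08 log2 units within urothelium (2 arrays and 1 array) and 3.65 within stroma (2 arrays and 1 array). Within detrusor it was -1.4 (1 array and 2 arrays). The detrusor intensities were 6.66 on day 2 and 149.9 and 38.9 on day 1, all below their array medians. The opposite direction thus rests on dim values. In limma's layer by day term the difference between urothelium and detrusor was 5.49 ± 1.47 (adjusted p = 0.784), with 1 array on one of the days in each layer. The difference between stroma and detrusor, 5.06 ± 1.47, was not tested, because Wt1 was chosen for differing among the stroma arrays. The layer by day term was added after the levels were seen and is not an independent test. The 4 day 2 arrays of urothelium and stroma also had the highest kidney sums (99898 and 19730 intensity units in urothelium, 16107 and 135177 in stroma), and the part of kidney transcripts in the day differences was not tested.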

How the results depend on the processing

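The 3 genes' differences kept their side of the threshold, or for untested ones their value within 1 SD, in all alternatives but these: Wt1, urothelium minus detrusor, passed with array weights (3.51, adjusted p = 0.0173), Msln, urothelium minus stroma, passed without stroma 3 (2.09), and Wt1, detrusor minus stroma, was -1.41 without urothelium 1, urothelium 3, stroma 2 and stroma 3. Uncalled signs that turned were Wt1 urothelium minus detrusor (-0.14 without those 4 arrays), Wt1 urothelium minus stroma (0.10 without urothelium 2) and Msln by day (3 of 17 alternatives). With 1 array left out, urothelium minus detrusor ranged from 1.66 to 3.95 for Wt1 and urothelium minus stroma from 0.83 to 2.09 for Msln. Genes called between urothelium and stroma (30) numbered 93 with quantile normalization, 223 with median centring, 13 and 303 with the lower and higher pseudocount, 10 without a filter, 18 by probe set, 11 with array weights, 0 without a trend, 10 with day as a term, 836 without the 4 arrays and 0 to 528 with 1 array left out. Calls between urothelium and detrusor (2145) numbered 3785 with array weights and 1172 to 2435 with 1 array left out, those between detrusor and stroma (763) 105 to 851, and those by day (2) 2 to 4, and 5 by probe set. Median centring moved the median of all genes to 0.31 for urothelium minus stroma (192 higher and 31 lower, against 8 and 22) and to 0.25 for detrusor minus stroma (588 and 144, against 408 and 355). Quantile normalization gave 42 and 51, and 478 and 324. Of the other mesothelial genes, 3 to 5 of 9 were called between urothelium and detrusor and 0 to 1 between urothelium and stroma with 1 array left out, the last number being 4 without the 4 arrays. Of the genes shared with urothelium, 0 to 5 of 8 were called between detrusor and stroma and 0 to 3 between urothelium and stroma with 1 array left out, the second being 1 with the higher pseudocount, 1 by probe set and 1 without the 4 arrays. The causes were not tested, beyond fewer arrays where arrays were left out. No paired analysis was possible because the labels carry no replicate numbers that link samples across layers.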

Other observations

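Most macrophage and leukocyte genes set stroma 1 apart. Of 8 such genes, 7 were at their highest on that array, and they summed to 5584 to 8114 intensity units in urothelium, 6247 to 11311 in detrusor, and 65517, 8956 and 29647 on stroma 1, 2 and 3. Tyrobp, a signalling adaptor of myeloid cells, had log2 levels of 13.07, 9.66 and 10.82 on stroma 1, 2 and 3. Ptprc, the remaining gene of the 8, went the other way. It was highest on urothelium 3, at 10.77, with 10.17 on urothelium 1 and 8.36 on stroma 1.

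Skeletal muscle genes were highest in detrusor as a list. The 6 genes summed to 231 to 4199 intensity units in urothelium, 22904 to 51182 in detrusor and 820 to 1744 in stroma. Myog, a myogenic factor of skeletal muscle, stood at 11.49 on detrusor 1, and at 5.56 and 6.45 on detrusor 2 and 3. Of the 6 genes, 3 passed the filter, and Myog was not among them. Actn3, which also failed it, went the other way, at 8.78 on stroma 1 and 5.85 to 7.88 in detrusor.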
